A study of Mus musculus with 11 samples.

Results

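The lateral Kölliker's organ (KO) cells of the postnatal day 1 (P1) mouse cochlea were described from single-cell RNA sequencing of the cochlear duct floor. KO is a transient ridge of tall epithelial cells between the organ of Corti (OC), which carries the hair cells (HCs), and the medial edge of the duct. Its cells secrete proteins of the tectorial membrane, the gel that lies over the HCs, and they release ATP, which drives spontaneous activity in the inner hair cells before the onset of hearing. Waves of that activity pass through gap junctions built from connexins, and mutations of the connexin gene Gjb2 are a frequent cause of inherited deafness.

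Lateral KO cells were chosen by the values of 12 genes in each cell. Deposited values were natural logarithms (ln) of 1 plus a gene's unique molecular identifiers (UMIs) per 10000 of the cell. A cell was a member if it had Gjb2 of at least 2.0, a UMI of Cpxm2 or Dcn, no UMI of Calb1, Matn4, Prox1, Otoa or Bmp4, Npy and Ccer2 below 2.0, Myo6 below 1.5 and Oc90 below 3.5. Calb1 marks medial KO cells, Matn4 the inner phalangeal cells that border the inner hair cell, Otoa the interdental cells at the medial edge, and Prox1, Npy, Bmp4, Myo6, Ccer2 and Oc90 other cells of the floor, the HCs and the roof. The rule held for 2148 of the 14043 P1 cells, among 30634 cells at all ages, with 439, 340, 424 and 945 members in replicates 1 to 4. Members made up 11.7%, 15.6%, 16.8% and 16.9% of these libraries, with a mean of 15.3% ± 2.44 (SD, n = 4 libraries). They were compared with the 10398 other P1 non-hair cells (Myo6 below 1.5 and Ccer2 below 2.0), with 3939 Calb1-high cells and with 257 Matn4-high cells. Calb1-high cells had at least 2.0 of Calb1 and met the other exclusions of the rule. Matn4-high cells had at least 2.0 of Matn4 and met the other exclusions except that of Calb1, which was left free. A further 400 Otoa-high cells were used for levels only.

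All P1 mice were wild type, of the CD1 strain, and received no treatment. Each of the 4 libraries came from 1 capture of cells pooled over several pups of either sex from a single litter, after stromal tissue had been removed with thermolysin. With library as a block, p-values measure how far the difference between classes within a library varied over the captures. They do not measure the spread between captures. The cells of 1 library were not treated as replicates, and each class gave 1 profile per library. Levels are given as CPM, counts per 1000000 UMIs in a cell, averaged over the cells of a class. A median of 5759, 5448, 5687 and 3943 UMIs stood behind a member in replicates 1 to 4, and 5531, 5103, 5540 and 3733 behind another non-hair cell. Replicate 4 was thus the shallowest library, and it supplied 945 of the members. Scrublet, a caller of doublets, marked 4 of the 2148 members and 168 of the 10398 other non-hair cells, and none of the replicate 4 members. Libraries shared 5 to 27 cell barcodes per pair, and members 1 barcode in all.

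The genes of the rule are given as levels only, since their values fixed who was a member. Gjb2 (GRCm38 chromosome 14 from 57098600 to 57104702) stood at 1636, 1592, 1726 and 1627 CPM in the members of replicates 1 to 4, against 617, 588, 627 and 695 CPM in other non-hair cells. Matn4-high cells had more, 4316 ± 445 CPM (SD, n = 4 libraries). Cpxm2, a member of the carboxypeptidase family (chromosome 7 from 132032687 to 132154739), averaged 850.7 ± 78.4 CPM in members, and Dcn, the matrix proteoglycan decorin (chromosome 10 from 97479609 to 97518143), 1019 ± 158 CPM. Along the Gjb2 threshold, 300 members lay between 2.0 and 2.2 with a median of 2.102, and 286 cells that failed on Gjb2 alone lay between 1.8 and 2.0 with a median of 1.90. Another 93 cells failed only for want of a Cpxm2 or Dcn UMI.

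Tectb, which encodes the tectorial membrane glycoprotein beta-tectorin, was the only proposed marker of these cells that the rule did not use (chromosome 19 from 55180733 to 55196313). It stood at 6837, 2606, 3255 and 1778 CPM in members of replicates 1 to 4. In other non-hair cells it was 1812, 550, 659 and 471 CPM, so that each library showed the difference while the highest library of the others overlapped the lowest of the members. Calb1-high cells held 337, 29.7, 44.6 and 34.3 CPM and Matn4-high cells 3870, 1804, 2020 and 1475 CPM. Replicate 1 had the most Tectb in every one of these classes. With all cells thinned to 1500 UMIs, 94.8%, 75.6%, 75.7% and 63.8% of members had a Tectb UMI (96.4%, 82.1%, 82.3% and 71.2% before thinning), against 20.5%, 3.61%, 3.88% and 3.92% of Calb1-high cells and at most 12.4% of Otoa-high cells. Tectb thus fitted the label on its medial side, and it did not by itself separate members from Matn4-high cells. Fabp7, a fatty acid-binding protein that the study places in the KO cells next to the OC, did not mark most members. It stood at 451, 106, 87.6 and 35.6 CPM in members and at 4878, 2988, 2084 and 479 CPM in Matn4-high cells, with no overlap between the groups (log2 fold change -3.99, SE 0.14, adjusted p = 8.52e-29 in limma). At 1500 UMIs, 22.6%, 8.53%, 7.08% and 3.81% of members had a Fabp7 UMI, against 92.7%, 84.6%, 84.3% and 44.4% of Matn4-high cells.

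Markers of mesenchyme and blood were near 0 in members, while the neuronal and cochlear roof lists each held 1 abundant gene, Isl1 and Sparcl1. The 15 mesenchyme genes summed to 9.18 to 30.7 CPM per library, against 22.6 to 47.8 CPM in other non-hair cells, and Pou3f4, the defining factor of otic mesenchyme, was listed at 0 in 3 of the 4 libraries. The 11 blood and immune genes in the table summed to 2.95 to 8.72 CPM in members and 4.02 to 79.95 CPM in the others, with 5 of them at 0 in all member libraries, and Ptprc, which marks leukocytes, was among these. Glial genes summed to 112.9 to 132 CPM in members and 174.6 to 232.1 CPM in the other cells. HC genes summed to 139.2 to 222.5 CPM against 228.4 to 353.7 CPM. The 10 neuronal genes, none at 0, summed to 1040 to 1520 CPM in members and 727.3 to 895.6 CPM in the others, and Isl1 made up most of the sum. Of the 3 tested, Isl1, which otic epithelium also expresses, at 1145 ± 248.9 against 548.3 ± 135.2 CPM, and Syt1, a synaptic vesicle protein at 108.2 ± 39.95 against 49.3 ± 19.9 CPM, rose, and Stmn2, a microtubule regulator of neurons, fell to 55.1 ± 18.9 from 215 ± 99.5 CPM. Endothelial genes summed to 50.4 to 73.2 CPM against 43.0 to 84.4 CPM, and melanocyte genes to 9.53 to 25.1 CPM against 6.89 to 10.1 CPM. The 7 cochlear roof genes summed to 1845 to 3457 CPM against 1235 to 1472 CPM. Of the 2 tested, Sparcl1, a matricellular protein that alone averaged 2784 ± 708 CPM in members against 1233 ± 176 CPM, rose, and Vmo1 fell. Vmo1 averaged 2.41 CPM in members and was tested only because of its level in the other cells, which fixed its direction. The part of these cell types in the results was not tested.

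Upstream sequences are shown for Tectb, the gene of the largest positive difference from other non-hair cells, for Epyc, the most abundant of the 15 leading lower genes in those cells, and for the neighbouring connexin genes Gjb2, which chose the members, and Gjb6. Each holds the 250 bases before the RefSeq start (GRCm38.p6), 5′ to 3′ on the strand of the gene. Capitals mark any match, on either strand, to the letters of 5 motifs. The letters searched for SOX factors were AACAAT. For RBPJ, the effector of Notch signalling, they were GTGGGAA. For TCF factors of the Wnt pathway they were CTTTGA. For GATA factors they were AGATAA, and for the TATA box, bound at many start sites, they were TATAAA.
Tectb, chr19:55180476-55180725 on the plus strand: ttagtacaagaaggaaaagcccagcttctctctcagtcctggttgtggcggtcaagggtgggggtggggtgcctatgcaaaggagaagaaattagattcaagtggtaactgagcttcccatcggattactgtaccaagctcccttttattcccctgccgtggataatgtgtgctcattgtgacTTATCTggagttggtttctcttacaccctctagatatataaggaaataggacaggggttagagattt
Epyc, chr10:97643818-97644067 on the plus strand: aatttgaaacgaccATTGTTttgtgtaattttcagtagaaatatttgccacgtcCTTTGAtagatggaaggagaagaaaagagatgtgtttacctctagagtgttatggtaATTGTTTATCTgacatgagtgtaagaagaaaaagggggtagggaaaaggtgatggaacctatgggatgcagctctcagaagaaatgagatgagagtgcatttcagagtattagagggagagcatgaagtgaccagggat
Gjb2, chr14:57104703-57104952 on the minus strand: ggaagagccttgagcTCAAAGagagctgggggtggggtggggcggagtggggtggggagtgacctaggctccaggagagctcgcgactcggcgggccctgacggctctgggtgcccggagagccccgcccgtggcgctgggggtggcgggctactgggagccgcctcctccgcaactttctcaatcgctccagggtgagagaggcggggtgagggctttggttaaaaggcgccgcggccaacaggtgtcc
Gjb6, chr14:57133612-57133861 on the minus strand: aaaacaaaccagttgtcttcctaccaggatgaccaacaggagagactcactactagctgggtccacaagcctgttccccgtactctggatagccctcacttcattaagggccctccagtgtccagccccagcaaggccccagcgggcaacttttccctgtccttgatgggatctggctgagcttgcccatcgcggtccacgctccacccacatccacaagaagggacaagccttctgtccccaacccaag
The Epyc window held 4 matches, 1 pair of them overlapping, the Tectb and Gjb2 windows 1 each, and the Gjb6 window none. These letters are common: among the 27025 RefSeq windows of this length, 9.65% held the SOX letters, 5.41% the RBPJ letters, 14% the TCF letters, 10.3% the GATA letters and 13% the TATA letters.

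Compared with all other non-hair cells, lateral KO cells had higher levels of most tested genes of the tectorial membrane and of the secretory pathway and of both tested connexin genes. Most tested genes of the interdental list (7 of 8, part of a list that the study drew from these libraries and so not independent) and of the Hensen and Claudius list (7 of 9) were lower. The rule excluded cells with a UMI of Otoa or Bmp4 while the other class kept them, so neither count is independent of it. Against Calb1-high cells, which met the same exclusions, 3 of 6 tested Hensen and Claudius genes were higher and 3 lower. Over all genes tested there, 12.4% were higher and 20.3% lower. Against Matn4-high cells only 4 of the 10 interdental genes were tested, of which 2 were higher in members and 0 lower. Of 8 Hensen and Claudius genes tested in that comparison, 2 were higher and 3 lower. Over all genes tested there, 7.18% were higher and 9.97% lower. Genes were tested if they averaged at least 10 CPM over both classes. A gene under 10 CPM in 1 class was tested only where the other class was high, so that its direction was fixed by the filter. Such genes are among both the higher and the lower calls. Of 8300 genes tested with limma, 821 were higher in members (9.89% of the genes tested) and 1507 lower (18.2%) at an adjusted p under 0.05. When each profile was scaled by the median of gene ratios, 1071 genes were higher and 907 lower, and the excess of lower genes turned with the scaling, while the median difference over all genes was -0.07 on the log2 scale in the fit as reported. All 821 genes called higher stayed so under that scaling. Without replicate 2 or replicate 3, 929 and 923 genes were lower. Genes that vary together with the 12 genes of the rule also differ between the classes, and that share was not tested.

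**Figure D1:**
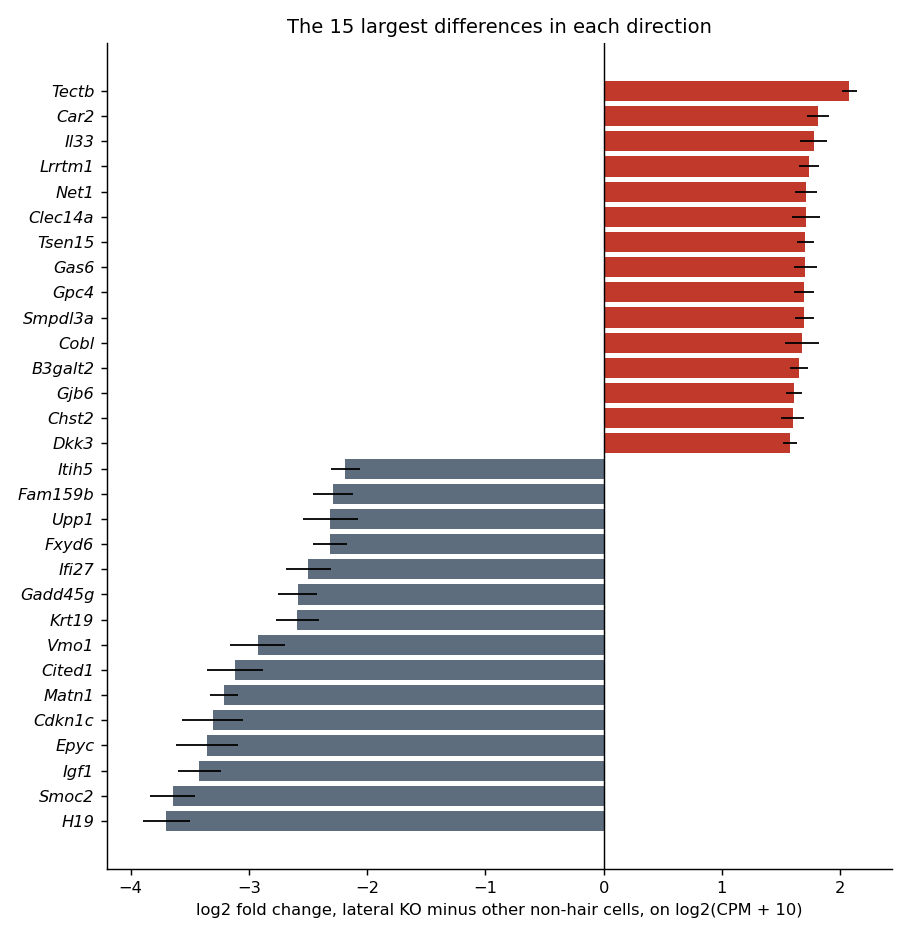
Log2 fold change on log2(CPM + 10) (x axis) of the 15 genes with the largest positive and the 15 with the largest negative difference between lateral KO cells and other P1 non-hair cells; bars are limma estimates over 4 libraries and lines their standard errors. Tectb leads the higher genes at 2.08, and H19 the lower ones at -3.70.

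The 15 genes of the largest positive difference were taken from those higher in members of 4 of 4 libraries. Tectb led them with a log2 fold change of 2.08 (standard error, SE, 0.06, adjusted p = 6.49e-10 in limma). Gjb6, which encodes the usual partner of the Gjb2 connexin (chromosome 14 from 57123303 to 57133611), stood at 255, 213, 317 and 488 CPM in members of replicates 1 to 4. Other non-hair cells had 90.1, 59.2, 81.8 and 165 CPM, below the members in each library and with no overlap between the groups. Its log2 fold change was 1.61 (SE 0.07, adjusted p = 7.46e-09 in limma). Gas6, the ligand of the TAM receptor kinases, stood at 140, 141, 147 and 99.7 CPM against 41.2, 30.4, 29.2 and 32.3 CPM. Dkk3, a secreted relative of the Dickkopf Wnt inhibitors, stood at 603, 836, 897 and 1085 CPM against 189, 277, 261 and 411 CPM. The 2 groups did not overlap for either gene.

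The other 11 genes had varied known roles. Car2, a carbonic anhydrase, averaged 323 ± 143 CPM in members and 85.5 ± 46.6 CPM elsewhere (SD, n = 4 libraries). Il33, an interleukin family cytokine stored in epithelial nuclei, averaged 72.8 ± 13.9 against 14.6 ± 7.23 CPM. Cobl, an actin nucleator, averaged 121 ± 56.8 against 28.1 ± 10.8 CPM, and the replicate 4 members had only 40.6 CPM of it. The remaining genes were Lrrtm1 (a leucine-rich repeat protein known from synapses), Clec14a (a lectin-like receptor known from endothelium), Net1 (a guanine nucleotide exchange factor), Tsen15 (a subunit of the tRNA splicing endonuclease), Gpc4 (a glypican), Smpdl3a (a phosphodiesterase), B3galt2 (a galactosyltransferase) and Chst2 (a sulfotransferase). Their mean levels in members ran from 54.0 CPM for Clec14a to 744 CPM for Tsen15. Clec14a averaged 9.13 CPM in other non-hair cells and passed the filter of 10 CPM only through members, which fixed its direction.

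For 5 of these 15 genes the mean was higher in Matn4-high cells than in members. There Gjb6 averaged 803.5 CPM, Tsen15 1015 CPM, Smpdl3a 351.4 CPM, Chst2 309.9 CPM and Il33 78.2 CPM, beside member means of 318.3, 743.9, 223.5, 210.4 and 72.8 CPM. Dkk3 averaged 195.6 CPM in Calb1-high and 134.6 CPM in Matn4-high cells, so that its member mean of 855.3 CPM was above both neighbours. Net1 at 521.3 CPM in members, 91.4 CPM in Calb1-high and 193.2 CPM in Matn4-high cells, and Cobl at 120.8, 6.99 and 28.8 CPM, likewise had their highest mean of the 3 classes in members. The means of all 15 were lower in Calb1-high and in Otoa-high cells than in members.

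**Figure D2:**
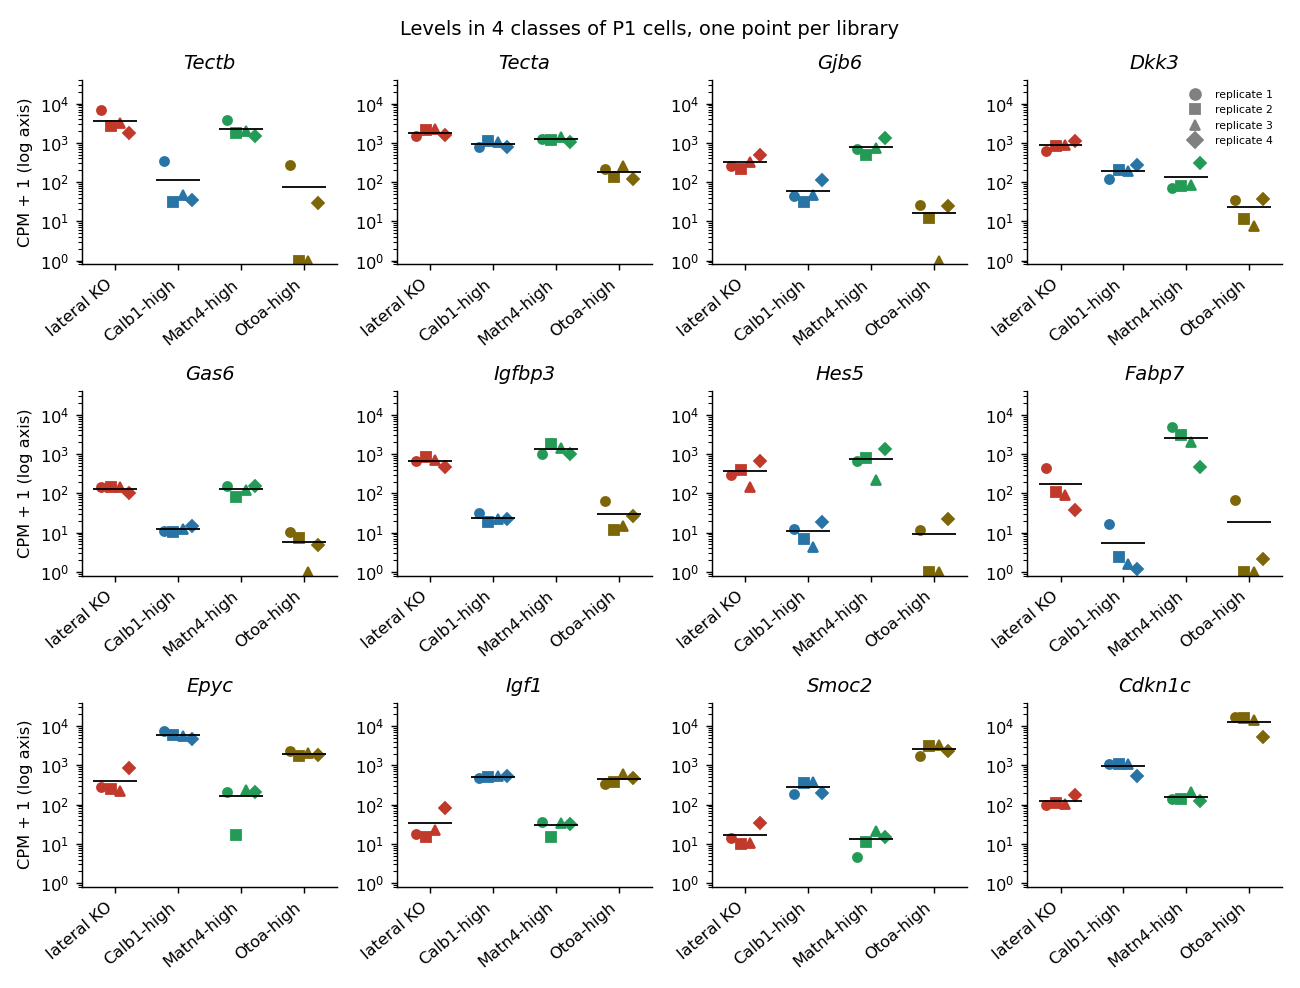
Level (CPM + 1, log axis) of 12 genes in lateral KO, Calb1-high, Matn4-high and Otoa-high P1 cells; each point is 1 library, its shape gives the replicate and the line is the mean of 4. Epyc, Igf1, Smoc2 and Cdkn1c are low in lateral KO and Matn4-high cells, and Dkk3 is highest in lateral KO cells.

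The genes of the largest negative difference were led by H19, an imprinted long noncoding RNA, at 5.65, 9.15, 13.8 and 52.4 CPM against 254, 361, 344 and 352 CPM (log2 fold change -3.70, SE 0.20, adjusted p = 3.46e-08 in limma). Epyc, the small leucine-rich proteoglycan epiphycan (chromosome 10 from 97644068 to 97682454), stood at 276, 251, 226 and 875 CPM in members and at 3952, 3833, 3745 and 2952 CPM in the other cells (log2 fold change -3.35, SE 0.26, adjusted p = 8.40e-07 in limma). Igf1, the growth factor, stood at 16.8, 14.1, 21.7 and 81.5 CPM against 298, 380, 414 and 471 CPM. The groups did not overlap for these 3 genes, and the replicate 4 members were the highest of the member libraries for each. Cdkn1c, an inhibitor of cyclin-dependent kinases, averaged 121.5 ± 38.2 CPM against 1359 ± 595 CPM.

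These lower genes were highest in different classes of the other cells. Otoa-high cells, whose profiles rest on 194, 37, 12 and 157 cells in replicates 1 to 4 and whose means weight the libraries equally, held H19 at 1311 ± 252.5 CPM, Cdkn1c at 13084 ± 5367 CPM, Smoc2 (a matricellular calcium-binding protein) at 2641 ± 708.2 CPM, Matn1 (a matrilin) at 1301 ± 378.2 CPM, Fxyd6 (a regulator of the sodium pump) at 1027 ± 384.9 CPM and Krt19 (a keratin) at 691.5 ± 374.6 CPM (SD, n = 4 libraries). Members had 20.2, 121.5, 16.1, 3.91, 5.42 and 6.06 CPM of these. Within the 4 profiled classes, Calb1-high cells were highest for Epyc (5959 CPM) and Cited1 (a transcriptional coregulator, 237.7 CPM). They were also highest for Upp1 (uridine phosphorylase, 119.8 CPM) and Itih5 (90.1 CPM). For Itih5 the mean over all other non-hair cells was higher, at 101.5 CPM. Vmo1 and Fam159b had means of at most 11.2 CPM in each of these 4 classes, beside 106.5 and 84.4 CPM over all other non-hair cells. Gadd45g and Ifi27 were highest in Otoa-high cells, at 429.8 ± 157.9 and 318.6 ± 145.0 CPM. Matn1, Fxyd6, Krt19, Cited1, Upp1, Vmo1, Fam159b and Ifi27 averaged under 10 CPM in members. They passed the filter only through the other non-hair cells, so that their direction was fixed by the filter.

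Most tested tectorial membrane genes were higher in members. Of 14 genes in the list 10 were tested, 8 rose, 0 fell and 2 did not pass, against 9.89% called higher among all genes tested, and their median log2 fold change was 0.51. Besides Tectb these included Col9a1, at 4211 ± 457 CPM against 2075 ± 541 CPM (SD, n = 4 libraries), Col2a1, at 3453 ± 989 against 1885 ± 436 CPM, and Tecta, at 1824 ± 356 against 1038 ± 161 CPM. The collagens are components of the tectorial membrane fibrils, and Tecta encodes alpha-tectorin, the partner of beta-tectorin. Tecta stood at 1479, 2076, 2183 and 1560 CPM in members of replicates 1 to 4, above the other cells in each library. Per library the list summed to 18186 to 19724 CPM in members and to 10181 to 10561 CPM in other non-hair cells.

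Genes for folding, modifying and exporting secreted proteins in the endoplasmic reticulum (ER) were mostly higher in members, by small amounts. Of 47 tested, 36 rose, 0 fell and 11 did not pass, against 9.89% called higher among all genes tested, with a median log2 fold change of 0.29 beside -0.07 over all genes. Fkbp9, an ER prolyl isomerase, averaged 2026 ± 361 CPM in members and 918 ± 240 CPM elsewhere (log2 fold change 1.15, SE 0.06, adjusted p = 1.75e-08 in limma). Sdf2l1, part of an ER chaperone complex, averaged 685 ± 377 against 391 ± 221 CPM. Plod3, which hydroxylates and glycosylates collagen lysines, averaged 113 ± 22.9 against 65.8 ± 15.5 CPM, and Pdia6, a disulfide isomerase, 2986 ± 518 against 1854 ± 340 CPM. The list summed to 23671 to 30041 CPM in members and 18372 to 23226 CPM in the others.

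Both tested connexin genes rose, Gjb6 and Gjc1, the latter at 45.3 ± 14.2 against 21.3 ± 8.02 CPM; Gjb2 belongs to the rule and was not counted. Among the genes of ATP release and the purinergic response, 4 of 11 rose and 1 fell, beside 9.89% and 18.2% over all genes tested. P2ry1, the purinergic receptor on KO cells, stood at 57.0, 25.7, 25.9 and 49.7 CPM in members against 20.7, 6.89, 8.75 and 21.4 CPM (log2 fold change 1.02, limma's adjusted p = 1.53e-06). Ano1, the calcium-activated chloride channel that acts after ATP in KO, stood at 91.0, 81.2, 93.5 and 121.3 CPM against 48.2, 38.9, 46.0 and 58.7 CPM (log2 fold change 0.88, limma's adjusted p = 5.98e-07). The groups did not overlap for either. Slc29a1, a nucleoside transporter, rose by 0.91 on the log2 scale. Slc12a2, the sodium, potassium and chloride cotransporter, fell by 1.23, to 168 ± 73.8 from 392.2 ± 87.8 CPM. Against Matn4-high cells, 2 of 13 tested genes of ATP release and the purinergic response were higher in members and 6 lower. Over all genes tested there, 7.18% were higher and 9.97% lower. Of the 2 connexin genes tested in that comparison 1 was higher and 1 lower.

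**Figure D3:**
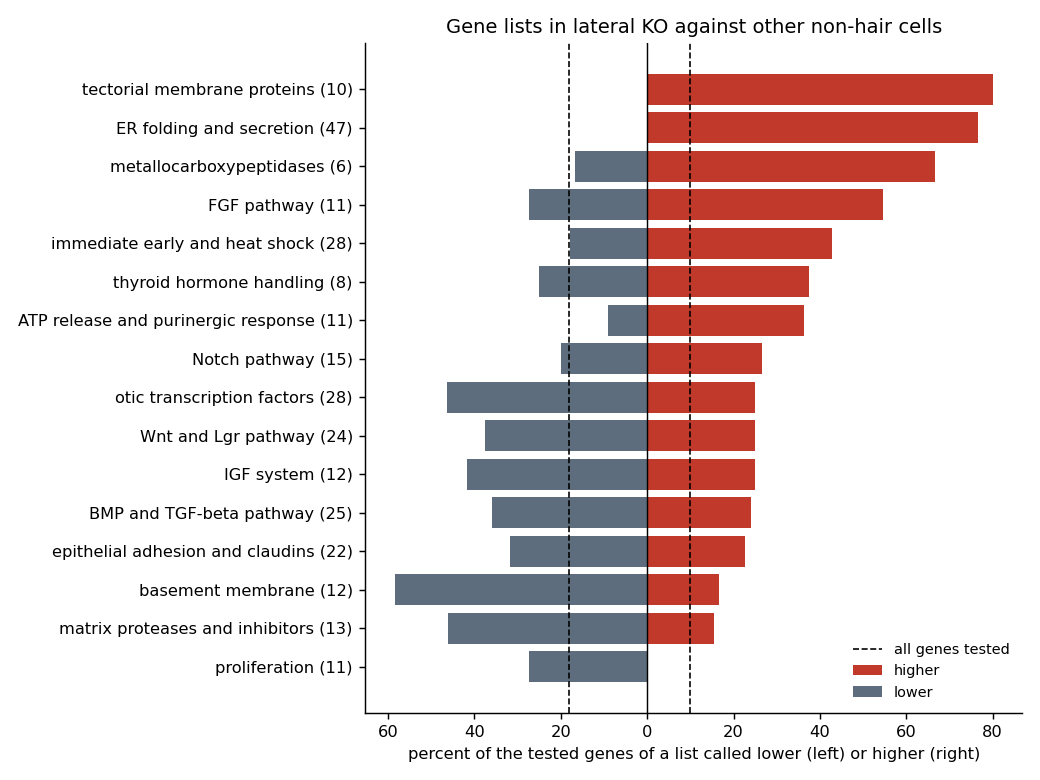
Percent of the tested genes of each pathway list (number tested in parentheses) called higher (right) or lower (left) in lateral KO cells than in other P1 non-hair cells; dashed lines mark 9.89% and 18.2%, the shares among all 8300 genes tested. Tectorial membrane and ER genes have no lower call.

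Other lists moved both ways, where 9.89% of all genes tested were called higher and 18.2% lower. In the carboxypeptidase family 4 of 6 tested genes rose, led by Cpz (201 ± 58.9 against 64.4 ± 18.0 CPM) and Cpa6 (71.5 ± 20.7 against 20.5 ± 7.53 CPM), and Cpxm1 fell. Of the thyroid hormone genes, 3 of 8 rose and 2 fell, and among the risers were the transporter Slc16a10 and the hormone-binding protein Crym, the latter at 583 ± 210 against 241 ± 78.9 CPM. Among FGF genes 6 of 11 rose and 3 fell. Fgf10 stood at 56.6 ± 18.5 against 25.8 ± 9.69 CPM and the feedback phosphatase Dusp6 at 54.6 ± 22.2 against 24.6 ± 9.23 CPM, whereas Fgfr3, a receptor of lateral supporting cells, was 3.14 ± 3.48 against 34.6 ± 6.04 CPM. Fgfr3 passed the filter of 10 CPM only through the other cells, so that its direction was fixed by the filter. Among insulin-like growth factor (IGF) genes 3 of 12 rose and 5 fell, with Igfbp3, a binding protein, at 674 ± 144 against 247 ± 38.9 CPM and Igf1 and Igf2 on the low side.

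Of the otic transcription factors 7 of 28 rose and 13 fell, beside 9.89% and 18.2% over all genes tested. Isl1, a LIM homeodomain factor, averaged 1145 ± 248.9 against 548 ± 135 CPM, and Sox2, the prosensory and supporting cell factor, stood at 156, 130, 149 and 200 CPM against 71.7, 72.6, 75.8 and 102.6 CPM. Gata2 and Rora fell by 1.45 and 0.82 on the log2 scale. In the Notch list 4 of 15 rose and 3 fell, the ligand Jag1 and the effector Hes5 among the higher, and Lfng, which modifies Notch receptors, and the effector Hes1 among the lower. The share of Notch genes that fell was near that over all genes tested. Without replicate 4 only 2 Notch genes rose, and without replicate 2 or replicate 3 only 1 fell. Of the basement membrane genes 2 of 12 rose and 7 fell, Col4a1 to 3.41 ± 0.273 from 29.4 ± 7.49 CPM. Col4a1 passed the filter of 10 CPM only through the other cells, so that its direction was fixed by the filter. No tested proliferation gene rose and 3 of 11 fell, Cdkn1c, Cdkn1a and Ccnd1, of which the first 2 encode inhibitors of the cell cycle. Ccnd1 averaged 9.37 CPM in members and passed the filter only through the other cells, so that its direction was also fixed. With median-of-ratios scaling 1 proliferation gene rose.

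Wnt and Lgr genes (6 of 24 rose, 9 fell), BMP and TGF-beta genes (6 of 25 and 9), adhesion genes and claudins (5 of 22 and 7), and matrix proteases with their inhibitors (2 of 13 and 6) were also split. Over all genes tested 9.89% were higher and 18.2% lower. Without replicate 2 or replicate 3 only 3 adhesion genes rose. Fstl1, a secreted glycoprotein counted with the BMP list, was among the most abundant transcripts of members at 4285 ± 709 CPM against 1743 ± 471 CPM. Of 28 tested immediate early and heat shock genes, which respond to handling of tissue, 12 rose and 5 fell, with Egr3 at 27.2 ± 6.13 against 12.8 ± 2.97 CPM and Klf2 at 63.6 ± 17.1 against 168.8 ± 41.4 CPM. The share that fell was near that over all genes tested, and without replicate 2 only 3 fell. Whether tissue dissociation took part in those values was not tested.

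Against the Calb1-high cells, their medial neighbours in KO, members differed in both directions over 8243 genes, with 1022 higher (12.4% of the genes tested) and 1673 lower (20.3%). With median-of-ratios scaling these were 1252 and 1122, and with averages of the deposited ln values 1127 and 1185. Without replicate 2 or replicate 3, 1068 and 960 were lower. Igfbp3 stood at 685, 823, 710 and 477 CPM in members and at 30.2, 17.9, 20.9 and 21.6 CPM in Calb1-high cells (log2 fold change 4.38, SE 0.13, adjusted p = 1.84e-08 in limma). Hes5, a target of Notch, stood at 293, 400, 144 and 660 CPM against 11.6, 5.86, 3.40 and 17.8 CPM (log2 fold change 4.15, SE 0.17, adjusted p = 5.40e-08 in limma). No library of either group overlapped for these genes. Tectb differed most, by 5.40. Socs2, a suppressor of cytokine signalling, S100a1, a calcium-binding protein, and Otol1, a secreted otolith protein, were also among the 10 leading genes, at 419 ± 39.1, 805.5 ± 365 and 107 ± 29.5 CPM in members against 31.7 ± 10.8, 95.7 ± 87.3 and 5.729 ± 2.195 CPM. Hes5 and Otol1 averaged under 10 CPM in Calb1-high cells and passed the filter only through members, which fixed their direction.

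The genes higher on the medial side were led by Epyc, at 7452, 6072, 5596 and 4716 CPM in Calb1-high cells against 276, 251, 226 and 875 CPM in members (log2 fold change -4.06, SE 0.30, adjusted p = 3.26e-06 in limma). H19, Igf1, Cited1 and Smoc2 followed at -3.99, -3.81, -3.76 and -3.48, and Cdkn1c and Itm2a were also among the 10. Cited1 averaged 7.97 CPM in members and passed the filter only through Calb1-high cells, which fixed its direction. Of the other small leucine-rich proteoglycans tested, Podn (podocan) rose in members and Lum (lumican) fell. The ER list again moved one way, with 37 of 47 genes higher and 0 lower, and 8 of 10 tectorial membrane genes were higher. Over all genes tested 12.4% were higher. In the list of OC supporting cell genes, part of which the study drew from these libraries, 13 of 15 were higher in members and 0 lower, so that its count is not independent evidence.

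Against Matn4-high cells, the inner phalangeal side, members differed in both directions over 8232 genes, with 591 higher (7.18%) and 821 lower (9.97%). With median-of-ratios scaling 705 were higher and 683 lower, and the excess of lower genes turned. Matn4-high profiles rested on 68, 39, 51 and 99 cells. Clu, the secreted chaperone clusterin and the most abundant transcript of members after ribosomal and mitochondrial genes were set aside, stood at 15865, 30474, 25889 and 29053 CPM in members and at 2406, 3662, 3619 and 4312 CPM in Matn4-high cells (log2 fold change 2.84, SE 0.08, adjusted p = 4.91e-34 in limma). Wfdc2, a protease inhibitor, averaged 506 ± 105.5 against 52.9 ± 31.4 CPM, Podn 153 ± 18.4 against 13.6 ± 6.39 CPM, P4ha2, a collagen prolyl hydroxylase, 154 ± 24.7 against 16.0 ± 10.1 CPM, and Fgfr1, an FGF receptor, 140 ± 73.1 against 21.4 ± 18.9 CPM.

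Several genes of Matn4-high cells were nearly missing from members. Trh, the precursor of thyrotropin-releasing hormone, was at most 1.16 CPM in a member library and 429, 260, 286 and 603 CPM in Matn4-high cells. Fgf3 was 0.603, 3.51, 1.06 and 1.97 CPM against 120.5, 182, 406.5 and 288 CPM (log2 fold change -4.33 on log2(CPM + 10), limma's adjusted p = 2.60e-21). Ednrb, the endothelin receptor, averaged 3.98 ± 2.69 against 209 ± 52.8 CPM, Lox, lysyl oxidase, 0.864 ± 1.31 against 109.6 ± 38.3 CPM, and Ccnd1, cyclin D, 9.372 ± 2.998 against 190 ± 40.6 CPM. The groups did not overlap for any of these 5. All of them averaged under 10 CPM in members and passed the filter only through Matn4-high cells, so that their direction was fixed by the filter. The ER list was higher in members here too (26 of 47 genes, 0 lower), and of the tectorial membrane genes 8 of 11 were higher and 2 lower (1 without replicate 4). Over all genes tested 7.18% were higher and 9.97% lower. In the OC supporting cell list 1 of 16 was higher and 14 were lower, the opposite side from the comparison with Calb1-high cells, and the same lack of independence holds.

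Members also differed among themselves. Fabp7 was not used by the rule and had a UMI in 344 of the 2148 members, 147, 53, 64 and 80 of them in replicates 1 to 4. Without thinning, that was 33.5%, 15.6%, 15.1% and 8.47% of them. In replicate 1, which held the most, 4.75% of Calb1-high and 9.79% of Otoa-high cells also had a Fabp7 UMI, so that 1 UMI does not by itself show expression in a cell. In the other libraries these shares were at most 0.516% and 0.637%. Fabp7-positive members were somewhat deeper, with a median of 5638.5 UMIs against 4693.5 in the 1804 others. Of 8127 genes tested without Fabp7, 303 were higher (3.73%) and 167 lower (2.05%) in Fabp7-positive members. Without replicate 3 these were 166 and 99, and with averages of the deposited ln values 398 and 126. They fell to 64 and 49 with no filter on low values, and to 14 and 14 with no replicate block.

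S100a1 stood at 2369, 2305, 1750 and 1187 CPM in Fabp7-positive members and at 712, 577, 543 and 310 CPM in the others (log2 fold change 1.82, SE 0.07, adjusted p = 1.72e-17 in limma). Prss23, a serine protease, stood at 544, 879, 642 and 936 CPM against 237.5, 169, 193 and 252 CPM (log2 fold change 1.75, SE 0.11, adjusted p = 7.00e-12 in limma). The groups did not overlap for either gene. Ramp3, which modifies calcitonin-family receptors, Slitrk6 and the neurotrophin Ntf3 averaged 105 ± 72.9, 101 ± 31.9 and 207 ± 73.3 CPM against 15.6 ± 13.2, 26.2 ± 6.39 and 67.0 ± 22.2 CPM. Matn4-high cells held 3677 CPM of S100a1, 1674 CPM of Prss23 and 371.6 CPM of Ramp3.

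On the other side, Fabp7-zero members had more Crabp1, a retinoic acid-binding protein, at 321, 482, 460 and 294 CPM against 108, 30.7, 25.1 and 38.4 CPM (log2 fold change -2.87, SE 0.21, adjusted p = 7.01e-11 in limma). Clu stood at 28367 ± 6217 CPM in them and 9614 ± 1025 CPM in Fabp7-positive members, and Slc12a2 at 189.8 ± 70.3 against 48.3 ± 14.7 CPM. Epyc, Gpc3, Wfdc2 and Mfap4 were lower in Fabp7-positive members as well, with log2 fold changes of -2.53, -2.25, -1.70 and -1.64. In Calb1-high cells Crabp1 averaged 2159 CPM and Slc12a2 592.2 CPM. In Fabp7-positive members 3.73% of all genes tested were higher and 2.05% lower. The ER list had 0 higher and 18 lower of 47 genes (9 lower without replicate 3). The OC supporting cell list had 12 higher and 0 lower of 15. Part of that list was drawn by the study from these libraries, so that its count is not independent evidence.

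**Figure D4:**
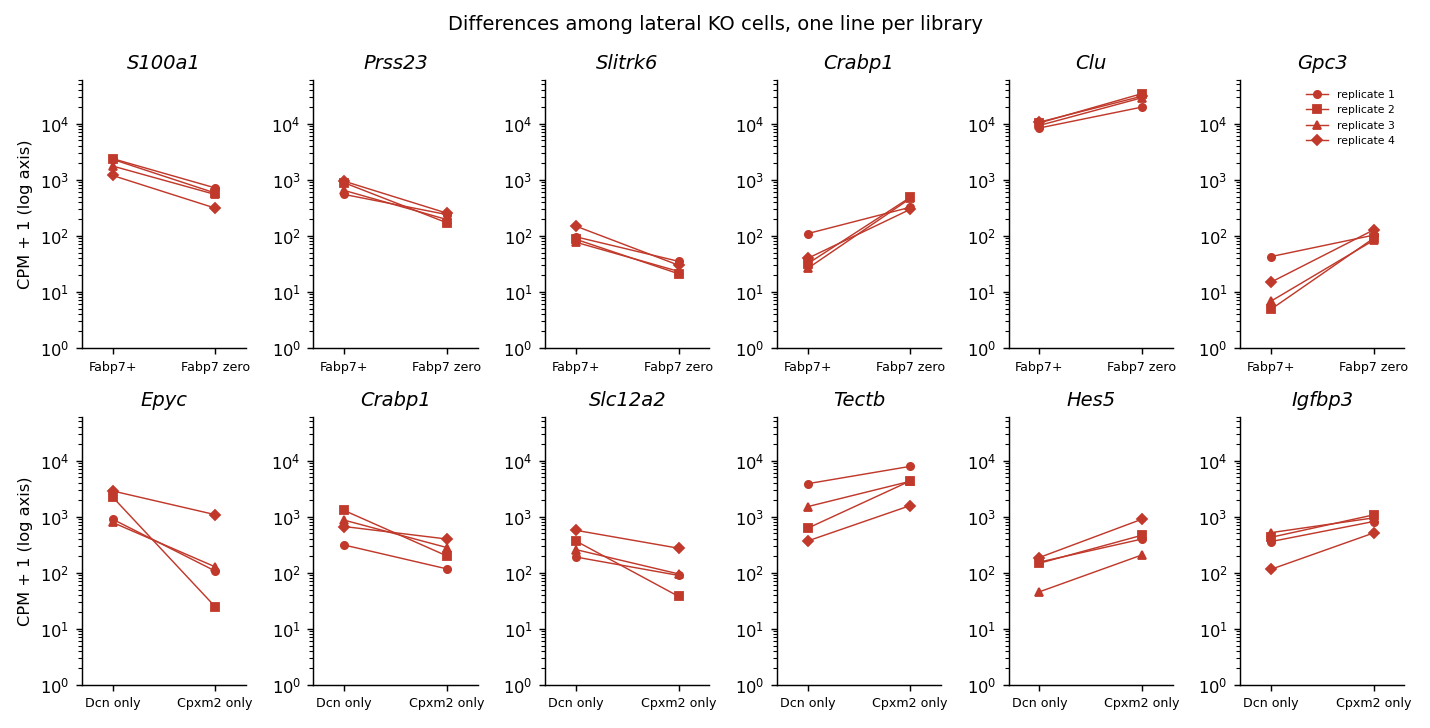
Level (CPM + 1, log axis) of 6 genes in Fabp7-positive and Fabp7-zero lateral KO cells (top) and of 6 genes in Dcn-only and Cpxm2-only lateral KO cells (bottom); each line joins the 2 values of 1 library. S100a1 falls and Crabp1 rises from Fabp7-positive to Fabp7-zero cells in 4 of 4 libraries.

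The rule admitted a cell through Cpxm2 or through Dcn, and cells admitted through only 1 of them were set side by side. Of the members 1799 had both genes, 168 only Dcn and 181 only Cpxm2. Cells with 1 of the genes were shallower, with median UMIs of 3311.5 (Dcn only) and 3958 (Cpxm2 only) against 5116. With 14 to 100 cells per profile, 33 of 8264 genes differed, 17 higher in Dcn-only cells (0.206%) and 16 lower (0.194%). Without replicate 3, or on log2(CPM + 1), there were 5 and 5, and with no replicate block 1 and 0. The split used genes of the rule, and a count of 0 in a shallow cell does not show that the gene was not expressed, so that the levels of single genes are given as a description. Epyc stood at 899, 2241, 787 and 2869 CPM in Dcn-only and at 106, 23.8, 126 and 1082 CPM in Cpxm2-only cells, respectively. The value of replicate 4 in Cpxm2-only cells lay above 2 of the Dcn-only libraries, so that the groups overlapped while each library kept the direction.

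In Dcn-only cells Crabp1, Slc12a2, Cdkn1c and Lum averaged 780 ± 406, 345 ± 166, 265 ± 84.5 and 1722 ± 1027 CPM against 248 ± 120, 123 ± 103, 107 ± 86.4 and 839.5 ± 519 CPM. Tectb stood at 3855, 619, 1504 and 366 CPM in Dcn-only cells and at 7866, 4318, 4263 and 1570 CPM in Cpxm2-only cells. Hes5 averaged 132 ± 61.0 against 491 ± 292 CPM and Igfbp3 354 ± 173 against 836 ± 242 CPM. Fstl1 averaged 2731 ± 487 against 4587 ± 420 CPM with no overlap between the groups.

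Libraries differed for some genes within members. Over 3251 genes of at least 50 CPM the median SD was 23.5% of the mean. It reached 129% for Rxrg, a retinoid receptor, at 10.6, 20.3, 39.4 and 188.8 CPM in replicates 1 to 4, and 126% for Id1, an inhibitor of bHLH factors, at 825.8, 48.0, 170 and 106 CPM. Fabp7, Btg3, Fhl2, Ndufb4, Atp5k, Plrg1 and Zfp787 were also among the 10 genes of widest spread. Other non-hair cells followed the same libraries for Id1 (776.7, 57.5, 174 and 103 CPM) and Rxrg (57.7, 115, 173.5 and 313 CPM).

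At the other ages the same rule was applied as a description, since Calb1, Gjb2 and the other genes need not mark the same cells there. It took 288 and 382 cells at embryonic day 14 (E14; 13.1% and 12.5% of 2 libraries), 81, 192 and 439 at E16 (6.50%, 6.83% and 11.3%), and 492 and 359 at P7 (27.7% and 22.4%). Tectb in these cells ran from 420 to 535.5 CPM at E14, from 405 to 511 CPM at E16, from 1778 to 6837 CPM at P1 and from 10373 to 12104 CPM at P7. Tecta ran from 724.5 to 762 CPM at E14, reached 2183 CPM at P1 and was 149 and 178 CPM at P7. Gjb6 was 35.1 and 35.4 CPM at E14, 81.0 to 149 CPM at E16, 213 to 488 CPM at P1 and 254 and 306 CPM at P7.

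Some genes that led at P1 were at low levels in the cells that met the rule at P7. Dkk3 was 603 to 1085 CPM at P1 and 47.2 and 58.6 CPM at P7. Il33 was 52.5 to 83.7 CPM and then 0.946 and 2.07 CPM, and Gas6 99.7 to 147 CPM and then 1.18 and 1.64 CPM. Epyc, which was low in P1 members, was 3328 and 3348 CPM at P7, and Upp1 was 200 and 212 CPM there against at most 11.4 CPM at P1. Both genes were highest at P1 in Calb1-high cells. Ages were captured in separate libraries and were not tested against each other.

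**Figure D5:**
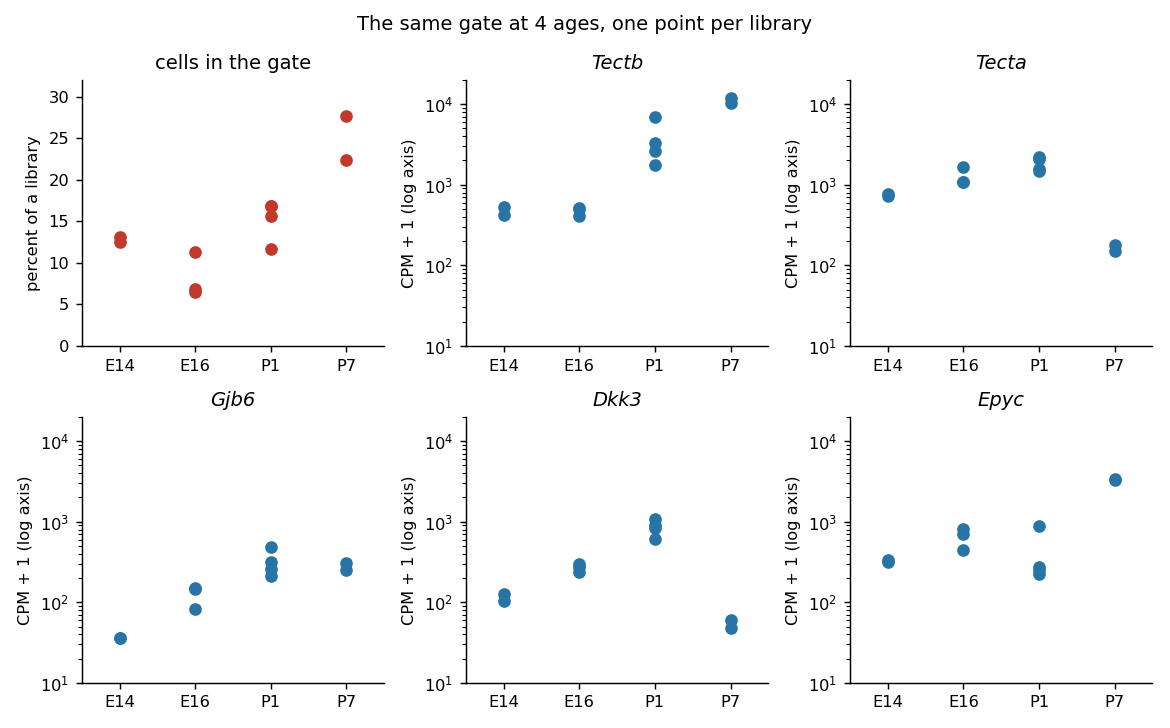
Percent of each library that met the rule (first panel) and level of 5 genes (CPM + 1, log axis) in those cells at E14, E16, P1 and P7; each point is 1 library. Tectb is lowest at E14 and E16 and highest at P7, whereas Dkk3 is highest at P1.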

How the data were processed

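Cells of the cochlear duct floor were captured on the 10x Chromium system. The authors aligned reads to mm10 and counted UMIs with Cell Ranger 2.1.1, filtered and normalized with Seurat 2.0, and deposited natural log (ln) values of 1 plus the UMI share times 10000. UMIs worked back from these values were whole within 2% for 100% of entries. Members and gene lists were chosen with earlier results of these data known. CPM values were averaged by class within each library. Both classes of a library were fitted together, with library as a block, by limma 3.58.1 (R 4.3.3; trend) on log2(CPM + 10), over genes averaging 10 CPM or more. The added 10 shrinks fold changes of low genes. The 12 rule genes (and Fabp7 in its own comparison) were removed before fitting. P-values were adjusted by Benjamini-Hochberg over all genes tested, with a threshold of 0.05. Named genes were the 15 (10 in other comparisons) largest changes each way shared by 4 of 4 libraries, leaving out mitochondrial, ribosomal, haemoglobin, Gm-numbered and Rik names, and up to 4 per list. Doublets were called with Scrublet in scanpy 1.11.5 (expected rate 0.06, exact neighbours) and kept. Shares of cells with a UMI of a gene used 1500 UMIs per cell where this is stated, and all UMIs elsewhere. Gene positions are from GENCODE (GRCm38).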

Additional observations from a re-analysis of the deposited data

Results flagged for a closer look

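In 9 of 37 named genes 1 member library stood far from the other 3. The nominal rate of about 1 in 20 holds for independent groups. These genes came from the same libraries, so that the count cannot be set against that rate. Replicate 4 was the distant library for 5 of them. It was lower for Gas6, at 99.69 CPM, and higher for Smoc2, at 33.24 CPM, Igf1, at 81.49 CPM, Epyc, at 874.9 CPM, and Gadd45g, at 44.45 CPM. The last 4 were lower in members than in other non-hair cells in every library. Members of replicate 4 had a median of 3943 UMIs, against 5448 to 5759 in the other libraries, and 77 of the 93 cells that failed only for want of a Cpxm2 or Dcn UMI lay in that library; the part of either in these values was not tested. Replicate 1 was the distant library for Npy, a gene of the rule, at 15.49 CPM, Smpdl3a, at 310.8 CPM, and Vmo1, at 7.698 CPM, and replicate 3 for Chst2, at 291.1 CPM.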

How the results depend on the processing

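The replicate numbers name libraries, and both classes of a library were fitted with it as a block. With no replicate block, 91 genes were higher and 122 lower against all other non-hair cells, 222 and 151 against Calb1-high cells, 166 and 265 against Matn4-high cells, 1 and 0 in Dcn-only against Cpxm2-only members, and 14 and 14 in Fabp7-positive against Fabp7-zero members. The ER genes called higher in members were then 1, 5 and 6 of 47 in the first 3 of these comparisons, with 0 lower, and the tectorial membrane genes 1 of 10, 4 of 10 and 4 of 11. Over all alternatives 1 to 9 tectorial membrane genes were higher and 0 to 2 lower against all other non-hair cells. With median-of-ratios scaling 907 genes were lower against all other non-hair cells. With no filter on low values, 244 and 325 differed from Matn4-high cells, 5 and 5 between Dcn-only and Cpxm2-only members, and 64 and 49 with Fabp7. Dcn-only against Cpxm2-only members also gave 5 and 5 on log2(CPM + 1), 27 and 25 with pooled UMIs, and 53 and 42 with Gjb2 of at least 1.5. Members made up 19.4% of cells at that Gjb2 threshold and 9.73% at 2.5. Leaving out 1 library at a time gave 616 to 775 higher and 923 to 1436 lower genes against all other non-hair cells, 741 to 986 and 960 to 1676 against Calb1-high cells, 433 to 485 and 601 to 761 against Matn4-high cells, 5 to 15 and 5 to 12 in Dcn-only against Cpxm2-only members (fewest without replicate 3, and 10 lower without replicate 1), and 166 to 299 and 99 to 181 with Fabp7 (fewest without replicate 3). The direction turned for Smpx alone, among named genes, against all other non-hair cells, from 0.41 to -0.043 (adjusted p = 0.759 in limma) when hair cells needed both markers; the cause was not tested. Profiles of 14 to 100 cells limit the comparison of Dcn-only with Cpxm2-only members, and those of 39 to 99 cells the comparison with Matn4-high cells.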
